A study of Mus musculus with 32 samples.

Results

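The full span of the mammary time course was examined by comparing lactating glands on lactation day 9 (LD9) with glands of mid pregnancy on pregnancy day 12 (PD12). The samples were chosen by their titles, which place 4 arrays in each of the stages, so 8 of the 32 arrays of the study carry the comparison. The glands came from wildtype FVB mice kept on ordinary laboratory chow, and the tissue was stabilised in RNAlater before RNA was isolated. The same time course holds 4 arrays each of pregnancy day 17 (PD17), lactation day 1 (LD1) and lactation day 2 (LD2), and these 20 arrays together gave the estimate of the spread between samples. The remaining 12 arrays, of mammary gland and liver in the dietary fat groups, entered neither group. The labels describe each array as an individual sample of its stage, but they give neither the age of the animals nor whether each RNA came from 1 animal. The p-values therefore measure the spread between these samples, and the number of arrays limits the precision.

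In mid pregnancy the mouse mammary gland is a fat pad in which ducts and dividing alveolar buds lie among adipocytes and fibrous stroma. By established lactation, secretory alveoli take up most of the pad, and their epithelium makes caseins, whey proteins, lactose and fat globules in large amounts. Prolactin acting through Stat5 drives many milk protein genes, and the transcription factors of the Srebf family drive lipid synthesis. All values below come from whole tissue, in which fewer cells of a type and less RNA per cell cannot be told apart.

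Levels are given as log2 of the deposited array intensity, and differences as LD9 minus PD12 on that scale. A probe set, the group of oligonucleotides that reports a transcript, was tested when its highest stage mean reached the median of all values in the table, an intensity of 18.6, which 7189 of 12422 probe sets did. It was called when limma's Benjamini-Hochberg adjusted p was under 0.05. Of the probe sets tested, 35.2% were called higher on LD9 and 42.4% were called lower, which makes 2529 and 3048 probe sets and 77.6% in either direction. Changes of at least 2-fold were called upward in 699 (9.72%) and downward in 1618 (22.5%). The 4 arrays of the stages did not overlap in 5020 probe sets (69.8%), with LD9 above in 31.9% and below in 37.9%. When each of 5480 genes was represented by its brightest probe set, 1756 genes (32%) rose, 2463 (44.9%) fell, and the median difference over all of them was -0.21. The counts of each list below are to be read beside these shares.

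The balance of higher and lower calls depended on how the arrays were scaled. Median intensities were 17.3 to 17.5 on the PD12 arrays and 19.4 to 21.5 on the LD9 arrays. Higher calls made up 45.3% of calls on the values as deposited, 54.0% after quantile normalization, 32% with array medians set equal, and 70.6% with 21 ribosomal protein probe sets set equal. The median difference moved by 0.28, -0.26 and 0.53 under these 3 scalings. Of 6885 probe sets tested under every scaling, 1730 were called higher and 1672 lower under all 4. The faint end of the arrays also moved as a body, since probe sets with a PD12 mean between 3 and 4 had a median difference of 0.60, and 90.2% of those 2634 had the higher mean on LD9. For most groups of genes below, the median is given with its range over the 4 scalings, and a difference under about 1 in a gene that was faint at both stages should be read beside that movement.

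The caseins and whey proteins are the secreted proteins of milk. Of 16 genes listed, 13 had a probe set and were tested, and 13 rose with no overlap between the stages. Their median difference was 1.52 (1.26 to 2.04 over the scalings), against -0.21 for all genes tested. Csn1s1 and Glycam1 were not called after quantile normalization.

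The gene with the largest rise of the whole comparison was Csn1s2b, a calcium-sensitive casein. Its PD12 arrays read 5.54, 3.65, 3.83 and 4.77, and its LD9 arrays 14.72, 14.76, 14.74 and 14.37. Every lactating gland thus stood far above every pregnant one, by 10.20 ± 0.31 (SE, limma adjusted p = 3.89e-15). Lalba, the regulatory subunit of lactose synthase, read 10.19, 7.82, 6.68 and 9.37 on PD12 and 14.36, 14.22, 14.55 and 14.52 on LD9. The pregnant glands were spread widely and the lactating glands were not, and the difference was 5.90 ± 0.47 (limma adjusted p = 1.77e-09). Wap, the main whey protein of rodents, was already bright in mid pregnancy at 14.93, 13.94, 13.62 and 14.48, and reached 15.80, 15.68, 15.80 and 15.75. Its rise of 1.52 ± 0.18 was small but without overlap (limma adjusted p = 3.38e-07). The LD9 readings of Wap lay near the highest intensity of all arrays, 58520, and whether this limited the rise was not tested. The micelle proteins Csn2 and Csn3 went from 13.48 to 14.30 and from 13.18 to 14.50, which are rises of 0.83 and 1.32 (limma adjusted p = 3.53e-07 and 2.05e-09).

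Other secreted proteins of milk rose as well. Egf, the epidermal growth factor that is secreted into milk, read 3.40, 3.13, 3.14 and 2.99 on PD12, all below the test line, and 10.87, 10.62, 10.72 and 10.93 on LD9. The stages were separated by 7.62 ± 0.18 (limma adjusted p = 1.30e-16), a difference whose size rests on a faint PD12 level. Ltf, the iron-binding lactoferrin, rose from 8.29 to 12.51. Cel, a lipase that digests milk fat in the suckling pup, rose by 4.07, and Lcn2, an iron-siderophore carrier, by 1.69.

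The promoters of this list were searched because its genes rose together. RefSeq windows on build GRCm38.p6, reaching from 250 bases before to 50 bases after the start, were present for 11 of the 13 genes tested. The motif was TTCNNNGAA, the core bound by STAT5; it reads the same on both strands. It occurred in 4 of these 11 genes (36.4%), Csn1s1, Csn1s2a, Csn2 and Glycam1, and in 9.55% of the 27025 genes searched. Per window, its share was 8.30% of 32851. A match is a run of letters and not evidence of binding. The 250 upstream bases of 3 genes that hold it, with the motif in capitals, and of Wap, in which it was not found, are printed to show where it lies.
Csn1s1 (chr5:87665958-87666207, plus strand): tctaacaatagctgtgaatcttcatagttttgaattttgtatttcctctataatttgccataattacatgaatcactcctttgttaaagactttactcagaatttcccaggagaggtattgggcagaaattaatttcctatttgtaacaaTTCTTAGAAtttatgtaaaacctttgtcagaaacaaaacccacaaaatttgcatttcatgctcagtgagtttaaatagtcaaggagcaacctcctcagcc
Csn2 (chr5:87699426-87699675, minus strand): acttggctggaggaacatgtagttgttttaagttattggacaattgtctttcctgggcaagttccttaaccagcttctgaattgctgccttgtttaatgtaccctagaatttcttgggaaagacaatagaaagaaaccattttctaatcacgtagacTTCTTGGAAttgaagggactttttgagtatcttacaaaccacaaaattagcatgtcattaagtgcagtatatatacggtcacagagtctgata
Glycam1 (chr15:103565082-103565331, minus strand): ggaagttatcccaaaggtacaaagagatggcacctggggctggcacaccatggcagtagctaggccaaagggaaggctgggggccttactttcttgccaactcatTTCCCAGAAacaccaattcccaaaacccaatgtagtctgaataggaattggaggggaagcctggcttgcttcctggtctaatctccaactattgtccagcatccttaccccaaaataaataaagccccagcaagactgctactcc
Wap (chr11:6638650-6638899, minus strand): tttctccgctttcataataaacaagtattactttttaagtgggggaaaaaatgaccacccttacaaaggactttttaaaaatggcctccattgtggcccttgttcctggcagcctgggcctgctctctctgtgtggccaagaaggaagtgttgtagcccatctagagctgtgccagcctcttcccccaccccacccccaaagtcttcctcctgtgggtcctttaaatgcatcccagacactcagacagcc
Counted from the start of transcription, the motif began at position -100 in Csn1s1, -93 in Csn2, -145 in Glycam1 and 20 in Csn1s2a. Rises were called on the deposited values in genes with and without it, as the 0.47 of Csn1s1 and the 1.52 of Wap show.

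The milk fat globule genes clothe lipid droplets in membrane as they leave the cell. All 8 genes tested, of 10 listed, rose, with a median difference of 2.64 (2.38 to 3.17). Cidea, which enlarges lipid droplets, read 8.09, 6.74, 7.65 and 7.02 on PD12 and 13.64, 13.60, 13.57 and 13.39 on LD9, so the lactating glands were uniform and far above the others. Its difference was 6.17 ± 0.20 (limma adjusted p = 9.23e-15). Muc1, a membrane mucin, rose by 3.93 (limma adjusted p = 1.75e-12). Xdh, the xanthine oxidoreductase of the globule membrane, read 8.11, 8.00, 6.53 and 8.05 and then 11.23, 10.84, 11.03 and 10.97, a rise of 3.35 ± 0.26 without overlap (limma adjusted p = 1.31e-09). Its partner Btn1a1 rose by 2.54, and Plin2, the droplet coat protein, by 0.32, a call lost with array medians set equal.

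**Figure D1:**
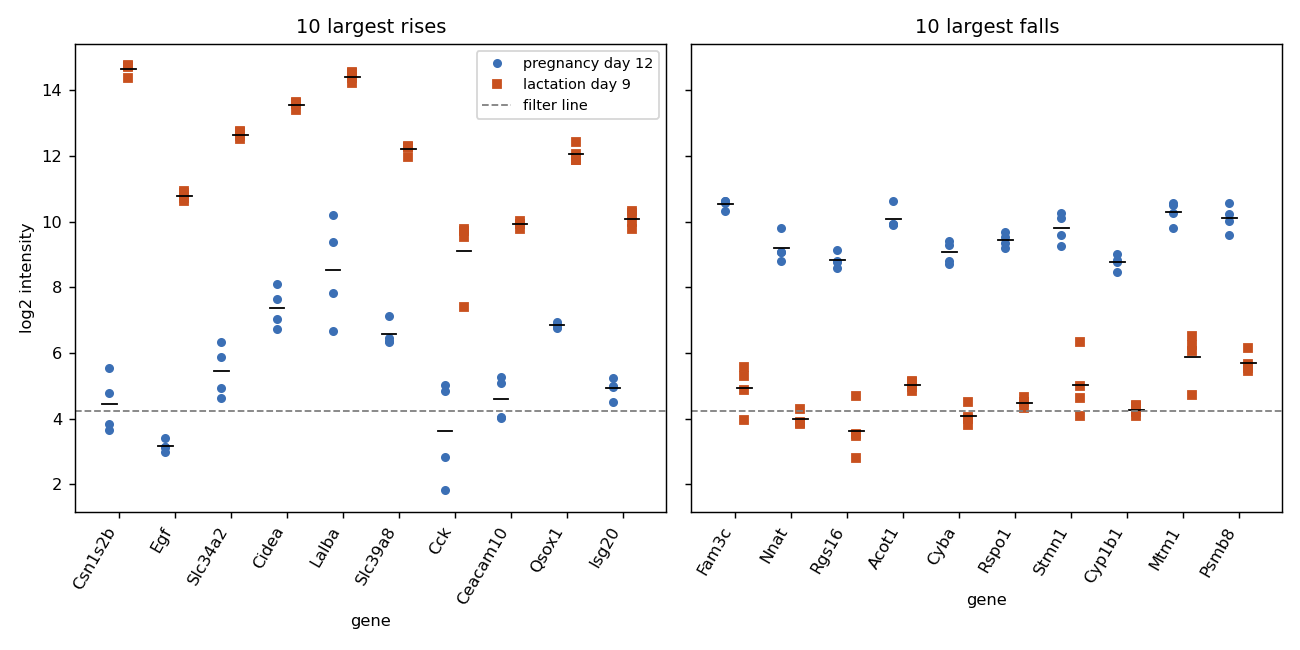
Log2 intensity of the genes with the largest rises and falls on each of the 4 PD12 and 4 LD9 arrays, 1 point per array, with a short bar at the stage mean and a dashed line at the test line. Genes were chosen among those whose stages do not overlap; Csn1s2b rose by 10.20 and Fam3c fell by 5.62.

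Fatty acid synthesis genes rose less steeply than the globule genes but nearly as uniformly. Of 13 tested (18 listed), 11 rose, 1 fell and 1 was not called, with a median of 1.14 (0.88 to 1.67). Elovl5, which lengthens polyunsaturated fatty acids, read 9.37, 9.63, 9.15 and 9.15 on PD12 and 12.00, 12.66, 12.77 and 12.53 on LD9. That made it the largest rise of the list, 3.17 ± 0.16 with no overlap (limma adjusted p = 2.77e-12). The mitochondrial citrate carrier Slc25a1, which feeds carbon to cytosolic synthesis, rose by 2.78 and the desaturase Fads1 by 2.56. Fasn, which builds palmitate, rose from 12.46 to 13.24 (limma adjusted p = 1.27e-04). Scd1, the stearoyl desaturase, moved from 13.59 to 14.13 (limma adjusted p = 0.0208), a call lost after quantile normalization, with array medians set equal, and without any of LD9 replicates 2 and 4 or PD12 replicate 4 (0.38 to 0.49 without them). The Scd1 call was also lost when only the 8 compared arrays were fitted. Elovl6 stood at 7.75 and 7.76 and was not called, and Dbi, the acyl-CoA binding protein, fell by 1.71.

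Cholesterol synthesis genes were split in a similar way, with 12 of 16 tested (23 listed) higher, 2 lower and 2 not called, and a median of 0.74 (0.48 to 1.26). Sqle and Lss, which make and close the sterol precursor squalene epoxide, rose by 1.41 and 1.31. Hmgcs1, which acts at the head of the pathway, fell from 8.19 to 6.81 (limma adjusted p = 7.06e-04). Among the lipid regulators, Srebf1, the lipogenic transcription factor, went from 10.14 to 10.59 (limma adjusted p = 0.0313). That call was lost with array medians set equal and without any of LD9 replicates 3 and 4 or PD12 replicates 2 and 3 (0.32 to 0.44). Nr1h3, the sterol-sensing receptor LXR alpha, fell by 1.46. Of 6 regulators tested (15 listed), 4 rose and 1 fell, with a median of 0.41 (0.19 to 0.94).

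Triglyceride assembly genes did not move as 1 group. Of 8 tested (14 listed), 3 rose and 5 fell, with a median of -0.73 (-0.99 to -0.20). Over all genes tested, 32% rose and 44.9% fell. Lpin1, the phosphatidate phosphatase, rose by 2.47 and Agpat1, an acyltransferase, by 2.22, while the glycerol phosphate dehydrogenase Gpd2 fell by 1.91 and the acyltransferase Agpat3 by 1.20. Gpd2 ended at 3.62, below the test line. Fatty acid uptake genes were divided as well, with 6 of 10 tested (12 listed) higher and 3 lower and a median of 0.50 (0.25 to 1.03). Lpl, the lipase that releases fatty acids from circulating triglyceride, rose from 11.79 to 12.52 (limma adjusted p = 9.15e-05). The fatty acid transporter Slc27a3 rose by 1.51, whereas Slc27a1 and the acyl-CoA synthetase Acsl5 fell by 1.37 and 1.38. The PD12 mean of Slc27a3 was 3.86, and only its LD9 mean, 5.37, reached the test line. Slc27a3 was thus tested because it was higher on LD9, and the size of its rise rests on a faint level. Lrp1, a lipoprotein receptor, fell by 3.27 (limma adjusted p = 7.48e-12).

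Beta oxidation, which burns fatty acids in mitochondria and peroxisomes, fell nearly as a whole. Of 21 genes tested (26 listed), 20 fell and 1 rose, with a median of -1.66 (-1.92 to -1.13). Cpt1a, the gatekeeper of fatty acid entry into mitochondria, read 7.97, 7.61, 7.80 and 7.91 on PD12 and 3.31, 3.98, 2.69 and 3.97 on LD9. All LD9 values lay below the test line, and the fall of 4.34 ± 0.25 had no overlap (limma adjusted p = 2.11e-11). The acyl-CoA thioesterase Acot1 fell from 10.61, 9.88, 9.91 and 9.92 to 5.14, 4.96, 5.12 and 4.85. Its groups were separated by -5.06 ± 0.23 (limma adjusted p = 1.21e-12), although a close paralog could share its signal. The electron carrier Etfb and the dienoyl reductase Decr1 fell by 2.51 and 2.32. The single rise was the peroxisomal enzyme Ehhadh, by 1.19, and a second probe set of Cpt2 (-2.29 at its brightest) went the other way by 1.42. Of the 20 that fell, 15 were called lower under all 4 scalings.

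Genes of glucose uptake and lactose synthesis were split. Slc2a1, the glucose transporter of the secretory cell, rose from 4.95 to 7.38 (2.44 ± 0.21, limma adjusted p = 6.66e-09). B4galt1, the catalytic subunit of lactose synthase, rose by 1.41 and the UDP-galactose carrier Slc35a2 by 0.71, while the phosphoglucomutase Pgm1 fell by 1.62. In all, 5 of 10 tested (12 listed) rose and 1 fell, with a median of 0.39 (0.13 to 0.92). In glycolysis 1 of 12 tested (16 listed) rose, the aldolase Aldoc by 2.03, and 6 fell. The median of -0.16 turned to 0.37 with ribosomal probe sets set equal, where 6 of the 12 were called higher and none lower. After quantile normalization 4 were called higher and 4 lower. Pentose phosphate genes had 3 of 5 tested (7 listed) lower, led by the isomerase Rpia at -1.47, with a median of -0.54 (-0.80 to -0.01). Citric acid cycle genes went both ways, with 5 of 21 tested (27 listed) higher and 13 lower and a median of -0.81 (-1.07 to -0.28). The isocitrate dehydrogenases Idh1 and Idh2 fell by 2.23 and 1.78, whereas citrate synthase Cs rose by 1.12 and the pyruvate dehydrogenase subunit Dlat by 1.33. Sucla2 fell by 1.70 at its brightest probe set and rose by 1.08 at another. Respiratory chain genes had a median of -0.44 that turned to 0.09 with ribosomal probe sets set equal, with 2 of 19 tested (29 listed) higher and 12 lower.

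**Figure D2:**
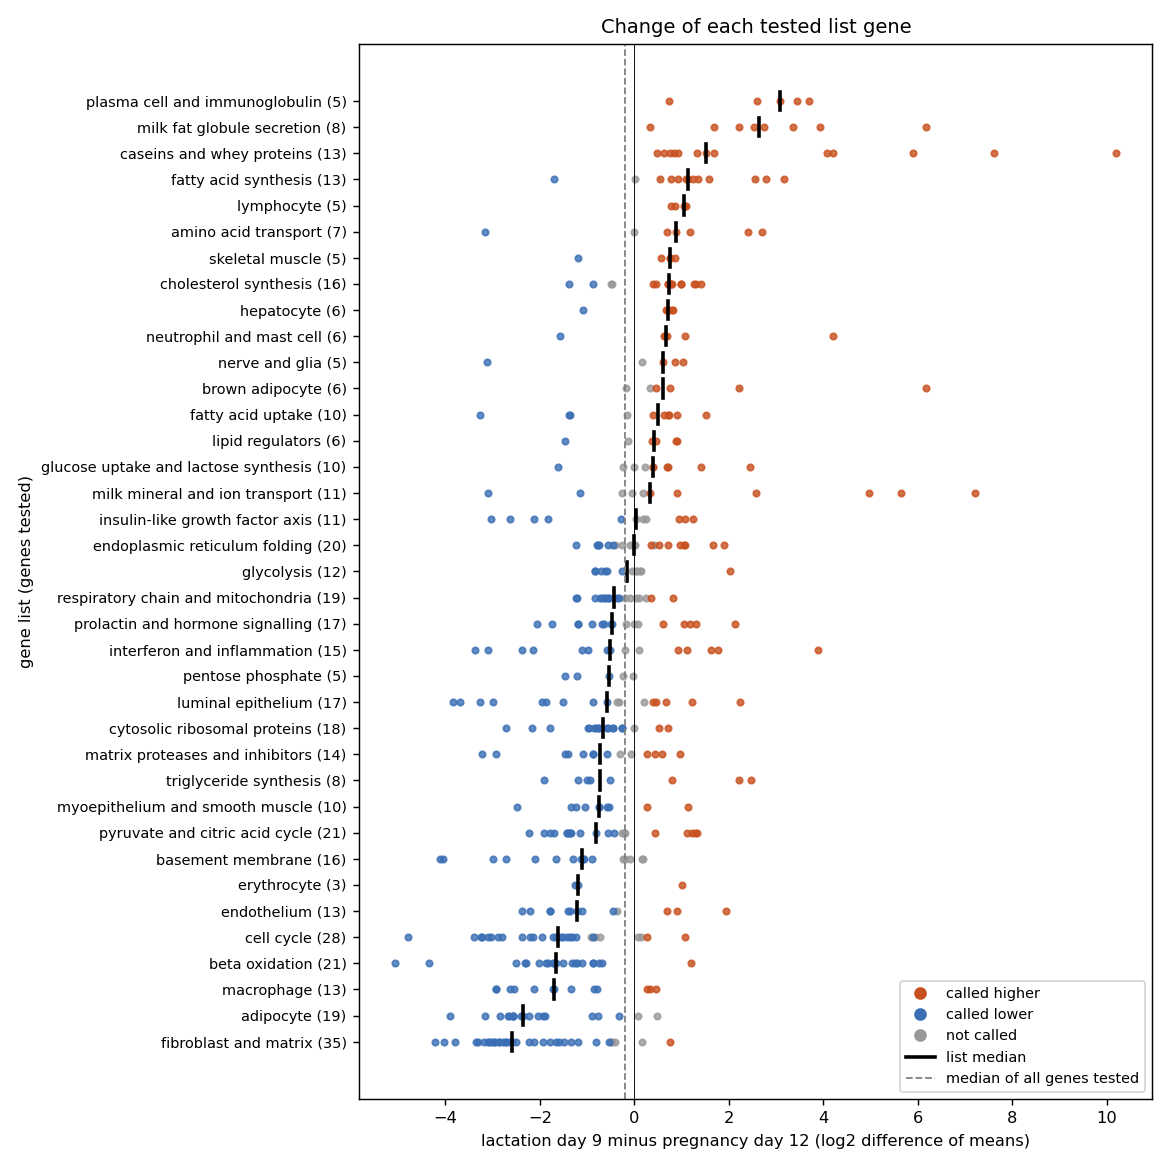
Difference of LD9 minus PD12 (log2) for each tested gene of the lists, 1 point per gene coloured by its call, with the median of each list as a bar and the median of all genes as a dashed line at -0.21. The list medians run from 3.07 for antibody secretion to -2.59 for fibroblast and matrix genes on the values as deposited.

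Carriers of milk minerals included 2 of the 10 largest rises. Slc34a2, a phosphate cotransporter, read 6.33, 4.93, 4.61 and 5.87 on PD12 and 12.76, 12.51, 12.73 and 12.59 on LD9. The stages were 7.21 ± 0.26 apart (limma adjusted p = 6.23e-14). Slc39a8, a carrier of zinc and manganese, rose from 7.11, 6.44, 6.37 and 6.32 to 11.96, 12.26, 12.31 and 12.28, again without overlap (5.64 ± 0.19, limma adjusted p = 2.50e-14). Atp2b2, the calcium pump of the apical membrane, read 3.90, 3.94, 3.94 and 3.72 in pregnancy, below the test line, and 9.08, 8.40, 9.12 and 8.76 in lactation. The rise of 4.97 ± 0.18 was called (limma adjusted p = 4.27e-14). The metallothioneins, which bind zinc, parted: Mt2 fell by 3.09 and Mt1 stood at 10.89 and 10.84. In total 6 of 11 tested (21 listed) rose and 2 fell, with a median of 0.33 (0.07 to 0.86). Amino acid carriers had 5 of 7 tested (15 listed) higher, led by Slc1a4 (2.70) and Slc7a7 (2.40), and 1 lower, the glutamine carrier Slc1a5 (-3.17, limma adjusted p = 2.85e-09). Their median was 0.88 (0.62 to 1.41).

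Hormone signalling genes went both ways. Of 17 tested (30 listed), 5 rose and 9 fell, and the median of -0.47 turned to 0.02 after quantile normalization and to 0.20 with ribosomal probe sets set equal. These counts lie near the shares over all genes tested, of which 32% rose and 44.9% fell. Akt1 rose by 1.31 and Akt2 fell by 2.06, both of them kinases of insulin and growth factor signalling (limma adjusted p = 2.52e-09 and 3.47e-09). Stat5a read 8.62, 8.18, 8.00 and 8.66 on PD12 and 7.21, 7.82, 8.25 and 8.24 on LD9. The stages overlapped and the difference of -0.49 was barely called (limma adjusted p = 0.0485), turning to 0.02 after quantile normalization and 0.04 with ribosomal probe sets set equal. It was also lost without any of LD9 replicates 1 and 2 or PD12 replicates 1 and 4 (-0.47 to -0.26). The Stat5a call was lost as well when only the 8 compared arrays were fitted, without a filter, with log2(value + 16), and with its probe sets averaged. Stat5b rose by 1.18. Elf5, the factor of alveolar fate, rose from 11.04 to 11.65 (limma adjusted p = 4.90e-04), and Tnfrsf11a, the receptor RANK, by 2.12. Cish, a Stat5 target, stood at 7.65 and 7.66. No probe set of 1 gene matched Prlr, the prolactin receptor.

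The insulin-like growth factor axis had 3 of 11 tested (13 listed) higher and 5 lower, with a median of 0.03 that turned to -0.23 with array medians set equal. These counts lie near the shares over all genes tested, 32% higher and 44.9% lower. The binding proteins Igfbp2, Igfbp6 and Igfbp4 fell by 3.04, 2.63 and 1.83, and the growth hormone receptor Ghr by 2.13. The substrates Irs1 and Irs2, which relay the insulin signal, rose by 1.07 and 1.24. Endoplasmic reticulum genes, which fold secreted proteins, were divided 8 higher and 6 lower among 20 tested (26 listed). Their median was -0.00 and ran from -0.26 to 0.53 over the scalings. The same shares over all genes tested, 32% and 44.9%, stand beside these counts. Dnajc3 and the signal peptidase subunit Sec11c rose by 1.89 and 1.67, the isomerase Pdia3 fell by 1.24, and the chaperone Hspa5 stood at 10.88 and 10.79. Cytosolic ribosomal proteins had 15 of 18 tested (54 listed) lower and 2 higher, with a median of -0.66 (-0.92 to -0.13); the last scaling is built on these genes.

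Cell division genes fell. Of 28 tested (36 listed), 21 fell, 2 rose and 5 were not called, with a median of -1.61 (-1.86 to -1.13). Stmn1, a microtubule regulator of dividing cells, read 9.25, 10.11, 10.27 and 9.60 on PD12 and 4.08, 6.34, 4.98 and 4.63 on LD9. The stages did not overlap, and the fall was 4.80 ± 0.49 (limma adjusted p = 5.70e-08). The cyclins Ccna2 and Ccnb2 fell by 3.40 and 3.22, the replication helicase subunit Mcm5 by 3.24, and the ribonucleotide reductase subunit Rrm1 by 2.81. Ccna2 ended at 3.17, below the test line. Mki67 read 7.11, 9.36, 9.73 and 7.88 against 7.05, 8.42, 7.52 and 7.46. Its pregnant glands varied among themselves and the stages overlapped, so the difference of -0.91 was not called (limma adjusted p = 0.0799). It was called without LD9 replicate 2 (-1.18), PD12 replicate 1 (-1.37) or PD12 replicate 4 (-1.12), and with array medians set equal.

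Adipocyte genes fell in every member called. Of 19 tested (24 listed), 17 fell, 2 were not called and 0 rose, with a median of -2.36 (-2.62 to -1.83) and no overlap in 17. The summed intensity of the list was 19100 to 29800 on the PD12 arrays and 6020 to 7110 on the LD9 arrays. Adipoq, the adipocyte hormone adiponectin, read 12.12, 12.64, 12.31 and 11.98 on PD12 and 9.34, 10.16, 9.47 and 9.79 on LD9. It fell by 2.57 ± 0.23 (limma adjusted p = 8.64e-09) and stayed well above the test line. Lep, leptin, fell from 7.34, 7.25, 6.59 and 7.32 to 5.17, 5.50, 4.92 and 5.34 (limma adjusted p = 4.27e-06). Further falls were measured for Sncg (-3.90), resistin Retn (-2.67), the adipogenic receptor Pparg (-2.36) and Pck1, the enzyme of glyceroneogenesis (-3.17). Fabp4, the adipocyte fatty acid binding protein, went from 5.96 to 5.62 (limma adjusted p = 0.0116), which turned to 0.04 after quantile normalization and to 0.20 with ribosomal probe sets set equal. The lipase Pnpla2 stood at 11.25 and 11.32. Plin1 had no probe set of 1 gene. The promoter motif PPRE, the direct repeat bound by PPARG with RXR, was searched on both strands with up to 2 mismatches. It was found in 0 of 15 adipocyte genes with a window. Of the 27025 genes searched, 1190 held it (4.40%), as did 3.86% of windows. At that share, so few genes cannot show whether the adipocyte list differs. Of the brown adipocyte list, 4 of 6 tested rose (median 0.61, 0.35 to 1.14), among them Cidea and Fabp3, which the milk fat list also holds. The others were faint: Elovl3 went from 4.53 to 5.29 and Cox7a1 from 4.02 to 4.48. The PD12 mean of Cox7a1 was under the test line, so it was tested because it was higher later. The part of the movement of faint probe sets in these rises was not tested. Ucp1 stood at 5.00 and 4.83.

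The fibroblast and matrix list had the lowest median of the 37 lists on the values as deposited. Of 35 tested (39 listed), 30 fell, 1 rose and 4 were not called, with a median of -2.59 (-2.84 to -2.08), and 28 fell at least 2-fold. The summed intensity was 33900 to 40800 on PD12 and 3690 to 8810 on LD9. Col1a1, a chain of type I collagen, read 12.40, 11.94, 12.03 and 12.30 on PD12 and 7.53, 10.23, 9.73 and 10.03 on LD9. Replicate 1 of LD9 was the lowest, and no lactating gland reached a pregnant one (-2.79 ± 0.38, limma adjusted p = 2.31e-06). Col6a3, of type VI collagen, fell from 9.79, 9.63, 9.49 and 9.67 to 4.13, 6.03, 5.29 and 6.25, a difference of -4.22 (limma adjusted p = 6.02e-10). Lum, a small proteoglycan, read 9.09, 9.41, 9.41 and 9.27 and then 3.66, 6.55, 5.23 and 5.61, with the same array lowest (-4.03, limma adjusted p = 1.25e-08). The fibroblast receptor Pdgfra fell by 2.51 and the matrix protein Sparc by 2.71. Fbln1 rose by 0.76 at its brightest probe set and was called lower at 2 others, by -1.67 at the brighter, and Col1a2 fell by 3.31 at its brightest and rose by 0.65 at another. Without LD9 replicate 1 the list's median was -2.24 and 30 of its genes were called lower.

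Basement membrane genes had 11 of 16 tested (18 listed) lower and 0 higher, with a median of -1.10 (-1.36 to -0.58). Lamb3, an epithelial laminin chain, read 9.06, 7.95, 7.97 and 8.51 on PD12 and 4.14, 4.31, 4.98 and 3.84 on LD9, a fall of 4.06 without overlap (limma adjusted p = 1.20e-10). The vascular laminin chain Lama4 fell by 4.12 and the type IV collagen chains Col4a2 and Col4a1 by 2.99 and 2.72. Lama5 stood at 5.95 and 6.12. Proteases and their inhibitors had 8 of 14 tested (24 listed) lower and 4 higher, with a median of -0.73 (-0.99 to -0.20). Over all genes tested, 44.9% were lower and 32% higher. The collagen chaperone Serpinh1 fell by 3.23 (limma adjusted p = 2.31e-08), Serpinf1 by 2.94 and the stromal protease Mmp3 by 1.46.

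Endothelial markers fell in 9 of 13 tested (20 listed) and rose in 3, with a median of -1.21 (-1.55 to -0.68). Sox18 and Cldn5, a factor and a junction protein of vessels, fell by 2.37 and 2.21, and Tie1 by 1.79. Pecam1, the adhesion molecule CD31, went the other way, from 5.83, 5.99, 6.46 and 6.15 to 8.12, 8.04, 8.09 and 7.89. The rise of 1.93 ± 0.16 had no overlap (limma adjusted p = 3.78e-09). Vwf rose by 0.69 at its brightest probe set and fell by 1.83 at another. Macrophage markers fell in 10 of 13 tested (22 listed) and rose in 3, with a median of -1.71 (-1.98 to -1.18), and the calls upward, of at most 0.45, were in Cd14, Mpeg1 and Fcer1g. The stages overlapped in these 3; without LD9 replicate 1 the list had 1 call upward, and with array medians set equal 0. C1qb, a complement chain made by macrophages, read 8.82, 8.40, 8.50 and 8.93 on PD12 and 5.20, 6.43, 5.68 and 5.57 on LD9 (-2.94 ± 0.21, limma adjusted p = 3.88e-10). The lysozyme Lyz2 and the adaptor Tyrobp fell by 2.92 and 2.63.

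Genes of antibody secretion rose. All 5 genes tested of 13 listed were called higher, with a median of 3.07 (2.81 to 3.59). Ighm, the heavy chain of IgM, read 5.53, 6.97, 6.11 and 6.24 on PD12 and 10.10, 9.20, 10.37 and 9.92 on LD9. The stages did not overlap at this probe set (3.69 ± 0.40, limma adjusted p = 1.07e-07), while 2 of 5 others tested for it were called lower, the brighter of them by -0.47, and probes for antibody chains can share targets. Igha, the heavy chain of IgA, rose by 3.44, Jchain, which links secreted antibody, by 2.59, and Pigr, the epithelial receptor that carries antibody into milk, by 3.07. Lymphocyte markers were mostly below the test line: 17 of 20 listed had a probe set and 5 were tested. Those 5 were higher by 0.77 to 1.09 from PD12 means of 3.55 to 4.53. In 4 of them the PD12 mean was under the test line, so they were tested because they were higher later, and their count says nothing of the 12 below the line. The part of the movement of faint probe sets in these differences was not tested.

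Most markers of liver and skeletal muscle were below the test line. Of 14 hepatocyte genes 12 had a probe set and 6 were tested, of which 5 were higher by at most 0.81, all from PD12 means under the test line. With array medians set equal, 1 gene was left to test, Cyp2e1, which fell by 1.09 on the deposited values. Alb and Ttr did not reach the test line. Of 16 skeletal muscle genes 15 had a probe set and 5 were tested, with differences of at most 0.85 in 4 whose PD12 means were under the line, and a fall of 1.20 in Myl1. The movement of faint probe sets is of like size to these differences, and its part in them was not tested. The summed skeletal muscle intensity was 179 to 198 on PD12 and 201 to 240 on LD9. Of 9 red cell genes listed, 3 were tested. Hba-a1, a globin chain, read 12.58, 13.02, 13.34 and 12.78 on PD12 and 9.12, 13.12, 11.95 and 12.49 on LD9. The stages overlapped, and the difference of -1.26 (limma adjusted p = 0.0457) became -0.41 without LD9 replicate 1, when it was no longer called; it was also lost without LD9 replicate 3 or without PD12 replicate 2, 3 or 4 (adjusted p = 0.0536 to 0.102). Alas2, the heme enzyme of red cells, went from -1.19 to -0.57 without LD9 replicate 1 and lost its call, as it did without PD12 replicate 2 or 3 (-1.03 and -1.05). Both calls were also lost after quantile normalization, with ribosomal probe sets set equal, and when only the 8 compared arrays were fitted. That of Hba-a1 was lost without a filter and with log2(value + 16) as well. Hemgn was called higher by 1.00 from a PD12 mean of 3.58, under the test line.

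The gland's own epithelial markers did not rise as a list. Luminal markers fell in 9 of 17 tested (22 listed) and rose in 5, with a median of -0.58 (-0.84 to -0.05). Over all genes tested 44.9% fell and 32% rose, so the luminal counts alone do not set this list apart. Krt19, a keratin of simple epithelia, read 11.09, 10.95, 10.70 and 11.40 on PD12 and 7.66, 6.93, 7.41 and 7.34 on LD9, a fall of 3.70 without overlap (limma adjusted p = 7.21e-13). Kit, a receptor of luminal progenitors, fell from 6.84, 7.52, 6.86 and 7.41 to 3.43, 3.19, 3.32 and 3.32, below the test line (-3.84 ± 0.21, limma adjusted p = 1.07e-11). The tight junction claudin Cldn3 fell by 3.27 and Cldn4 went from 5.74 to 2.75, a called fall to below the test line, while Cldn8 rose by 2.24. Cd24a stood at 12.22 and 12.42 and Epcam, the epithelial adhesion molecule, at 7.04 and 6.72; without LD9 replicate 2, Epcam was called lower by -0.49. Krt18 fell by 1.52 at its brightest probe set and rose by 1.18 at another. Myoepithelial and smooth muscle genes, the contractile layer that ejects milk, fell in 8 of 10 tested (17 listed) and rose in 2, by at most 1.13. Their median was -0.75 (-1.02 to -0.22). Of the 8 that fell, 5 had no overlap between the stages and 4 were called lower under all 4 scalings. Mylk and Acta2 fell by 2.48 and 1.35. Krt14, the basal keratin, stood at 2.23 and 2.65, below the test line. Nerve and glia genes were few, with 5 tested of 13 listed. Of these, 3 rose, 1 was not called and 1 fell, Pmp22 by 3.13. Their median was 0.61 (0.35 to 1.14).

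**Figure D3:**
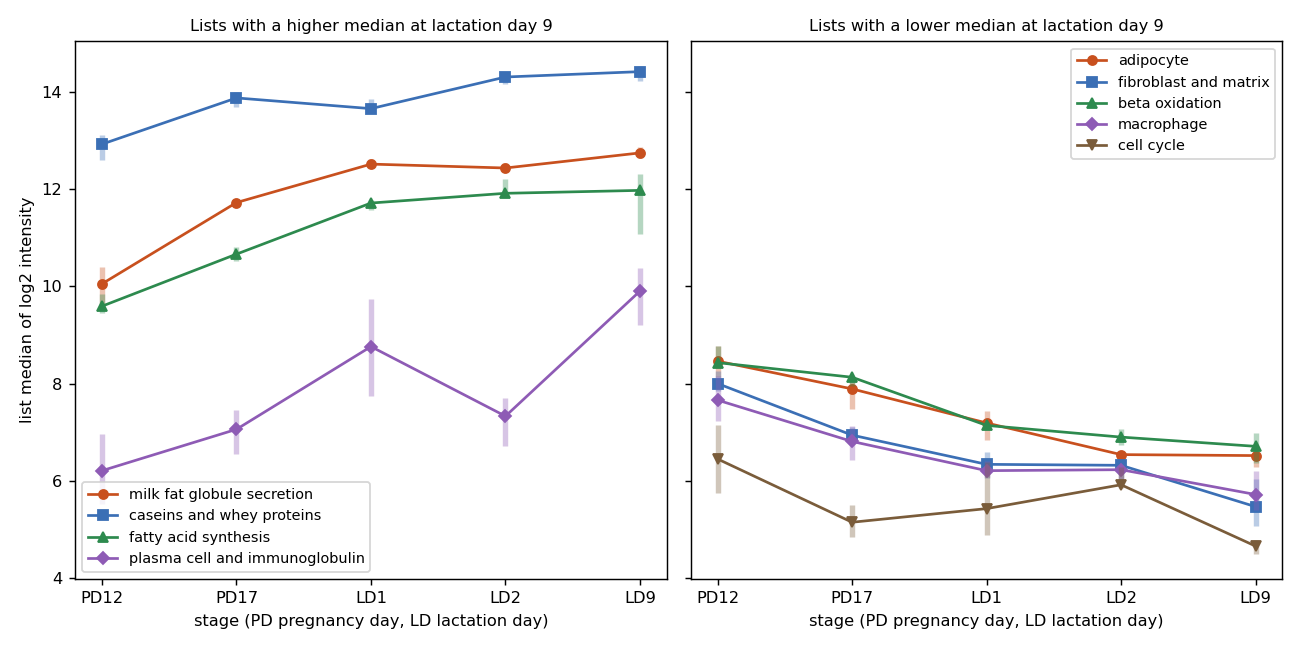
Median log2 intensity of the tested genes of 9 lists at the 5 chow stages, with points for the stage median and shaded bars for the range over the 4 arrays of a stage. The adipocyte median moves from 8.46 on PD12 to 6.52 on LD9, and the fibroblast and matrix median from 8.00 to 5.47.

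Interferon-response and acute-phase genes formed 1 list and went both ways. Of 15 tested (28 listed), 5 rose and 8 fell, and the median of -0.51 turned to 0.17 with ribosomal probe sets set equal. The counts were again near the shares over all genes tested, 32% higher and 44.9% lower. Saa2, an acute-phase apolipoprotein whose probes a close paralog may share, read 4.49, 3.56, 3.28 and 4.33 on PD12 and 5.98, 9.98, 7.48 and 7.75 on LD9. The lactating glands were spread over a wide range and all above the pregnant ones (3.88 ± 0.62, limma adjusted p = 1.34e-05), but the PD12 mean was below the test line, so the size rests on a faint level. Orm2 and Saa3 rose by 1.76 and 1.62, while Hp, haptoglobin, fell by 2.38. The interferon-response genes Ifi27l2a and Gbp2 fell by 3.37 and 3.09, and Irf1, a factor of that response, by 1.12.

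Several of the largest changes lay outside the lists. Cck, the gut and brain peptide cholecystokinin, read 4.83, 2.82, 1.81 and 5.02 on PD12 and 7.40, 9.72, 9.54 and 9.77 on LD9, a difference of 5.49 ± 0.57 (limma adjusted p = 6.12e-08) whose size rests on a PD12 mean below the test line. Qsox1, which forms disulfide bonds in secreted proteins, rose from 6.77, 6.89, 6.80 and 6.93 to 12.42, 11.86, 12.06 and 11.88 (limma adjusted p = 1.40e-15). By the rule that named them, neither gene's stages overlap. Ceacam10 and the exonuclease Isg20 rose by 5.31 and 5.16.

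Among the falls, Fam3c, a secreted protein of the FAM3 family, read 10.62, 10.57, 10.32 and 10.64 on PD12 and 3.95, 5.57, 4.87 and 5.29 on LD9 (-5.62 ± 0.25, limma adjusted p = 6.46e-13). Nnat, neuronatin, fell from 8.81, 9.79, 9.08 and 9.08 to 3.87, 3.84, 3.90 and 4.30 (limma adjusted p = 2.35e-10). Nnat ended below the test line, as did Rgs16 and Cyba. Rspo1, a Wnt enhancer that mammary luminal cells secrete, read 9.34, 9.19, 9.67 and 9.52 and then 4.66, 4.31, 4.49 and 4.49, with hardly any spread within a stage (-4.94 ± 0.12, limma adjusted p = 2.19e-16). Rgs16, a brake on G protein signalling, fell by 5.20, Cyba, a subunit of the NADPH oxidase, by 4.98, and the steroid-metabolising Cyp1b1 by 4.50. Mtm1, a lipid phosphatase, fell from 10.28 to 5.89, and Psmb8, a subunit of the immunoproteasome, fell by 4.39.

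**Figure D4:**
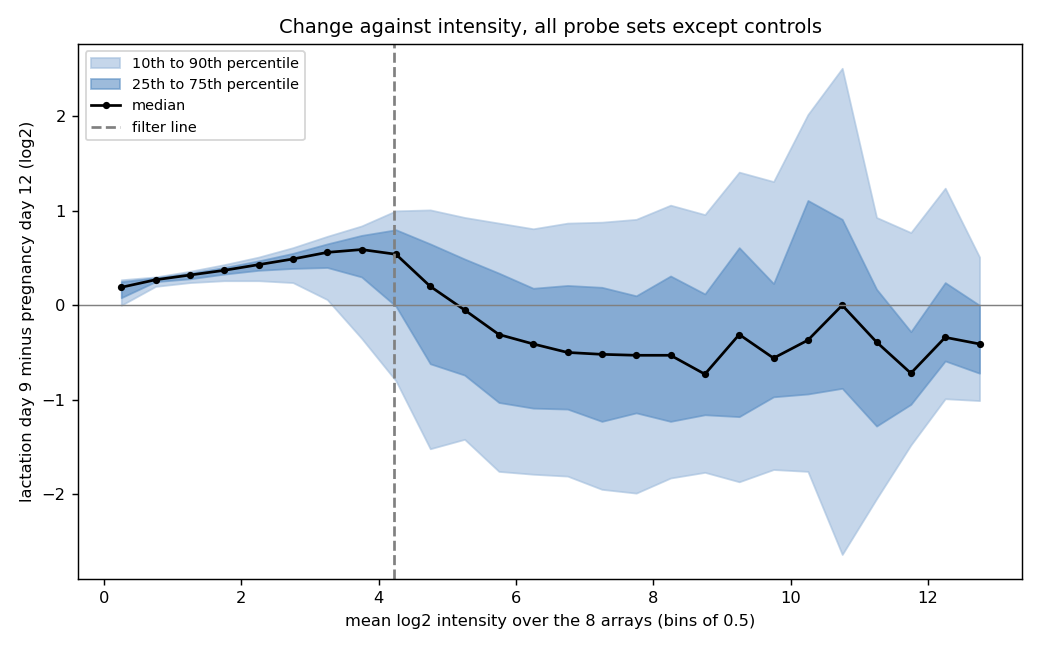
Difference of LD9 minus PD12 (log2) against mean log2 intensity over the 8 arrays for all probe sets except controls, in bins of 0.5, with the median as points, percentile bands as shading and the test line dashed. Probe sets with a mean from 3.0 to 3.5 have a median of 0.56, and tested ones between 7 and 9 a median of -0.55.

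The intermediate stages showed when the change was reached. For each called probe set with a change of at least 2-fold, the first stage whose mean held 50% or more of the final change was noted; this is a description, since the ends define it. Of 699 rises, 164 (23.5%) had reached that point on PD17 and 286 (40.9%) first reached it on LD1. Of 1618 falls, 638 (39.4%) had reached it on PD17 and 518 (32%) first on LD1. Of 20 cell division falls 17 had reached it on PD17, but not all stayed there: the median share of their final change was 73.2% on PD17, 61.7% on LD1 and 23.5% on LD2. The median level of that list was 6.45 on PD12, 5.15 on PD17, 5.92 on LD2 and 4.66 on LD9. Of the casein and whey rises, 6 of 8 had reached it on PD17. Beta oxidation falls came at the onset of lactation, with 12 of 16 first there on LD1, and so did 6 of 8 fatty acid synthesis rises. Of 7 luminal falls, 0 were there by PD17, 4 arrived on LD1 and 3 only on LD9.

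Single genes with falls of like size differed in their course. Acot1 had made 8.59% of its fall on PD17 and 99.6% on LD1, and Rspo1 54.2% and 108%. Fam3c had made 26.0% on LD1 and 30.5% on LD2, so most of its fall lay between LD2 and LD9. Cyba held 32.7% of its fall on LD2, Krt19 26.8% and Lamb3 25.9%. Among the rises, Wap held 97.5% of its change on PD17, Csn1s2b 54.7%, and Egf 15.6%. Wap was by then near the highest intensity of all arrays, and whether this limited its later change was not tested. Slc39a8 had reached 54.9% on LD2, so much of its rise came later still.

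**Figure D5:**
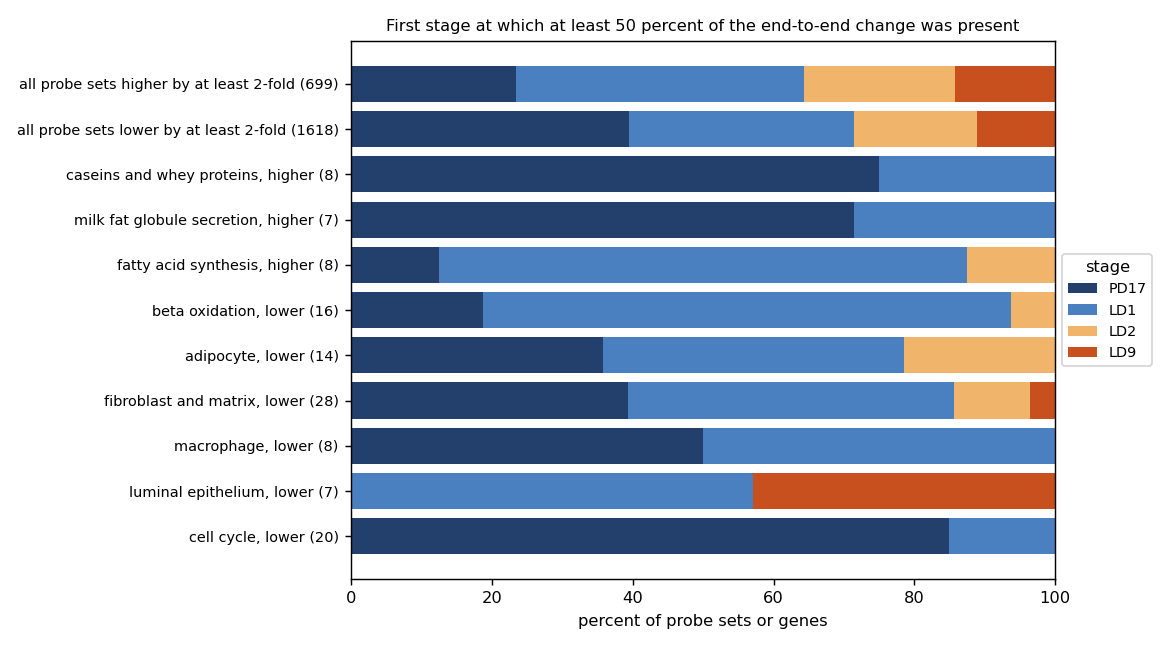
Share of probe sets or genes that first held 50% or more of their final change on PD17, LD1, LD2 or LD9, for all called changes of at least 2-fold and for selected lists, as stacked bars in percent with the number of probe sets or genes in brackets. Of the cell division falls 85.0% first reached that point on PD17, though their median share was back to 23.5% on LD2, and 75% of the beta oxidation falls first reached it on LD1.

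A comparison of the ends alone missed genes that left and returned. Across the 5 stages 6293 probe sets (87.5%) varied by limma's moderated F (adjusted p under 0.05), and 863 of them (12.0% of those tested) were not called between PD12 and LD9. Of these, 72 had an intermediate stage mean at least 1 above both ends and 21 had one at least 1 below both. Igf1, insulin-like growth factor 1, is an example: its PD12 arrays read 8.26, 8.77, 8.64 and 8.64 and its LD9 arrays 9.19, 8.07, 8.68 and 8.49. The ends overlapped (limma adjusted p = 0.902), yet the means between them were 6.57 on PD17, 7.26 on LD1 and 6.62 on LD2. Its return depended on scaling, since LD9 was called higher after quantile normalization (0.51) and with ribosomal probe sets set equal (0.56).

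Arrays that belong to neither group give a further reading for the same genes. In the 3 mammary arrays of dams on the diet with 8% of energy as soy oil, taken on lactation day 10, Csn1s2b stood at 14.66 ± 0.09 (SD, n = 3), Egf at 10.99 ± 0.10 and Fam3c at 3.58 ± 0.38. Adipoq stood at 9.32 ± 0.91 and Col1a1 at 7.42 ± 0.58. Diet and day both differ from the LD9 glands, so these values stand beside them without a test.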

How the data were processed

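RNA of 32 samples, mammary gland and 3 of liver, was measured on oligonucleotide arrays with 12488 probe sets. The deposited values are intensities on a linear scale, summarised with GCRMA per the submitters' processing notes; which arrays shared a normalization is not stated in the labels or headers, and the stages' medians differ. Controls (66 probe sets) were left out, values below 1 (208 of 399616) were set to 1, and log2 was taken. Probe sets whose highest stage mean reached 18.6, the median of all values, were tested.

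limma 3.58.1 in R 4.3.3 was fitted to the 20 chow arrays with 1 mean per stage and empirical Bayes variances; contrasts were adjusted by Benjamini-Hochberg over 7189 probe sets. Precision was limited by the number of arrays, and the differences also depended on scaling and on the movement of the faint range. Genes were taken from the platform annotation: 10833 probe sets had 1 symbol, 396 several and 1193 none; the brightest probe set (mean of every array) stood for a gene, and probe sets called in the opposite direction were sought. The members and lists were chosen with earlier results of these data known.

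Genes named by rule were the 10 that rose most and the 10 that fell most with stages apart, from each list at most 4 with a call and 2 without, and a set of milk, fat, stromal and regulatory genes; further list members and the genes that returned between the ends were picked after their values were seen. Replicate numbers were not used to pair the stages in the main fit. On simulated data with 200 changed probe sets the fit recovered 90.6% of 2-fold and 52.0% of 1.5-fold changes, with 3.65% false calls. The simulated noise was independent, without shifts between arrays, and far fewer probe sets changed than were called in the data. These shares therefore need not hold for the comparison itself. Alternatives covered scaling, filter, offset, gene summary, replicate block, a variance trend, a fit to the 8 compared arrays alone, and each array left out.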

Additional observations from a re-analysis of the deposited data

Results flagged for a closer look

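Each group of 4 arrays of a named gene was examined for an array whose gap to its nearest neighbour exceeded Dixon's 95% critical value relative to the whole range. Chance alone marks about 1 group in 20; of 426 groups, 36 were marked. The values below are log2 intensities, each set against the median of the other 3 arrays.

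LD9 replicate 1 was the array most often marked, in 11 groups. It stood apart for Slc39a8 (11.96 against 12.28), Cck (7.40 against 9.72), Slc25a1 (11.08 against 12.28), Rxra (5.12 against 5.59), Tnfrsf11a (7.22 against 6.97), Igfbp2 (5.23 against 6.79), Ssr3 (9.51 against 10.54), Serpinf1 (4.73 against 6.14), Col5a2 (5.46 against 6.77), C1qc (5.06 against 6.44) and Mylk (5.78 against 7.12). The collagen Col5a2, the macrophage gene C1qc and the contractile gene Mylk were each lowest on that array, and without it the median differences of the adipocyte, fibroblast and macrophage lists were -2.23, -2.24 and -1.48. Its correlation with the mean of the other 3 arrays was 0.9811, against 0.9856 to 0.9909 for the others.

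On the other lactation arrays, replicate 2 was marked for Slc27a1 (7.42 against 7.90), Lama5 (5.95 against 6.18), Ms4a1 (5.34 against 5.67), Ccr7 (4.29 against 4.70) and Nefl (4.73 against 5.12). Replicate 3 was marked for Slc7a5 (10.53 against 9.83) and Tyrobp (4.08 against 4.19). Replicate 4 was marked for Csn1s2b (14.37 against 14.74), Nnat (4.30 against 3.87) and Tpm2 (5.41 against 3.97).

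On the PD12 arrays, replicate 1 was marked for Slc39a8 (7.11 against 6.37), Acot1 (10.61 against 9.91), Slc7a7 (5.59 against 4.60), Cox6c (12.22 against 12.43) and Fabp4 (5.86 against 5.99). Replicate 2 was marked for Tpi1 (10.20 against 9.67), Idh1 (7.79 against 7.18) and Acta2 (10.46 against 10.84). Replicate 3 was marked for Xdh (6.53 against 8.05), Rab18 (8.95 against 9.48), Acsl4 (7.50 against 8.15), Igfbp2 (10.05 against 9.19), Lep (6.59 against 7.32) and Elf5 (10.69 against 11.16). Replicate 4 was marked for Slc27a1 (8.51 against 9.35).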

How the results depend on the processing

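Of 212 named genes with a test, 157 kept their side of the threshold, with no called direction turned, under all 18 alternatives, and 183 did under all but the 3 scalings. The sign of the difference, called or not, turned under some alternative in 40 genes (a difference of 0.00 has no sign), of which 2, Fabp4 and Stat5a, had been called; 28 turned with ribosomal probe sets set equal, 19 after quantile normalization and 12 with array medians set equal. Without a filter 10370 probe sets were called, 7115 of them higher; with a filter at the 75th percentile 3085 were called, 884 higher, 419 higher by at least 2-fold, and 526 varied without a call between the ends. With ribosomal probe sets set equal 4019 were called higher and 1672 lower, 2443 and 833 of them by at least 2-fold. Rises of at least 2-fold numbered 366 with log2(value + 16) and 377 with array medians set equal; in these counts the causes were not tested, beyond fewer or more probe sets being tested under a filter. Leaving out each array gave 5361 to 5600 calls, 2406 to 2574 higher, 2940 to 3088 lower, 653 to 818 and 1573 to 1672 by at least 2-fold, and 851 to 960 varying without a call between the ends. With the replicate number as a block 5589 were called, 2531 higher and 3058 lower, and 845 varied without a call. The deviations of same-numbered arrays correlated at -0.008, 0.128, 0.052 and -0.056. The highest correlation of the same PD12 arrays with an LD9 array of another number was 0.087, -0.023, 0.037 and 0.062. Correlations this small cannot settle whether same-numbered arrays were handled together. A turned direction was called, or a called one turned, with ribosomal probe sets set equal for Hk1 (0.29), Galt (0.51), Pgd (0.50, and 0.44 after quantile normalization), Slc3a2 (0.50), Gata3 (0.34), Ssr3 (0.51), Rps24 (0.52), Ctsl (0.45), Fabp4 (0.20, quantile 0.04) and Stat5a (0.04, quantile 0.02). With a gene's probe sets averaged it turned for Rps24 (0.18) and Cox6c (0.21), and for Ssr3 single arrays left out gave -0.12 to 0.23, the upper value without LD9 replicate 1. Intensities give no depth, and small differences of faint probe sets cannot be told apart from the movement of the faint range.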

Other observations

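Among genes that left their mid-pregnancy level and were back on LD9, chosen after their values were seen, several peaked late in pregnancy. Back means not called between the ends on the deposited values. With ribosomal probe sets set equal, Defb1, Nrip1, Slc29a1 and Tef were called higher on LD9. With array medians set equal, Krt7, Dhcr7 and Fen1 were called lower. After quantile normalization, Slc29a1 (0.47) and Tef (0.71) were called higher and Krt7 (-0.52) lower. The antimicrobial peptide gene Defb1 read 3.41 ± 0.26 (SD, n = 4) on PD12, 6.03 ± 0.47 on PD17 and 3.66 ± 0.07 on LD9. The nuclear receptor corepressor Nrip1 stood at 3.78, 5.97 and 3.96 on the same days, and the Wnt receptor Fzd4 at 5.74, 7.75 and 5.61. The keratin Krt7 had the same course, at 4.59, 6.17 and 4.23.

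Another set peaked in the first days of lactation. Slc29a1, a nucleoside carrier, was 6.92 on PD12, 8.56 on LD1, 8.41 on LD2 and 6.89 on LD9. The sterol reductase Dhcr7 stood at 5.71, 6.40, 7.54 and 5.23, and the replication nuclease Fen1 at 6.28, 7.75, 7.96 and 5.56. Of the clock genes, Cry1 was highest on LD1 at 7.25 against 5.69 and 5.44 at the ends, while Per1 was lowest there at 4.97 against 6.65 at both ends. Tef, another clock-linked factor, read 7.35 on PD12, 6.25 on LD1, 6.09 on LD2 and 7.54 on LD9; the hour at which tissue was taken is not given in the labels. The metallothionein Mt1 dipped from 10.89 to 8.73 on LD1 and was 10.84 on LD9.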
